A study of Mus musculus with 4 samples.

Results

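Cassette exons of at least 28 nucleotides (nt) were described in the mouse retina from the deposited long-read transcript models and the counts of each isoform in 6 cell classes. A cassette exon was an internal exon whose flanking introns were both present in one isoform, while another isoform of the same gene had 1 intron joining the same outer ends. The rule found 7013 such exons in 4245 genes, out of 97633 internal exons in the models. The rule used exon structure only, so the inclusion values below were not part of the choice, although a model exists only for an isoform with at least 1 rod count.

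Male wild-type mice of the inbred strain C57BL6/J supplied the retinas, which gave 4 single-cell libraries read on a nanopore sequencer. Of these, 2 had no enrichment, 1 of them from postnatal day 40 and the other with no age in its label. A library with CD73 enrichment came from postnatal week 8 and a library with CD90.2 enrichment from postnatal month 4. Photoreceptors carry the surface protein CD73, and some neurons carry CD90.2. For CD73 the label says enrichment, whereas the protocol describes removal of CD73-positive cells. The counts were deposited as 1 column each for rods, cones, bipolar cells, amacrine cells, ganglion cells and Müller glia, with no library. A class therefore has no replicate and no test between classes was possible. Differences between classes are given by size, with exact Clopper-Pearson 95% intervals that cover counting error only.

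A cassette exon is kept in some mature transcripts of a gene and spliced out with its flanking introns in others. An exon whose length is a multiple of 3 can be kept or left out without shifting the reading frame downstream, whereas other lengths shift it and often bring in an early stop codon. Transcripts with an early stop are commonly degraded by nonsense-mediated decay. Neurons, glia and photoreceptors are known to use different splicing regulators, and retinal photoreceptors carry exons that other tissues skip.

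The sequences of 10 coding exons are given first because the class differences described below turn on them. They come from GENCODE M21 transcripts, with positions on mouse build GRCm38, and run 5′ to 3′ on the gene's strand. Capitals mark the cassette exon and the lower-case letters are the 12 bases of the adjoining exon on either side, which become direct neighbours when the exon is skipped. The first pair was kept mainly in photoreceptors. The next 5 were skipped mainly in Müller glia, the following pair was kept mainly in ganglion cells, and the last had its highest inclusion in Müller glia.
Ttc8, chr12:98937120-98937149, plus strand: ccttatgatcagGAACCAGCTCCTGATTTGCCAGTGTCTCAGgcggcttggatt
Pphln1, chr15:93452117-93452173, plus strand: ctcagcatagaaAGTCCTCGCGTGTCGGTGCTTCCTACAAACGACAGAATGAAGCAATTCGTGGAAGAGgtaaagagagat
Cltb, chr13:54597026-54597079, minus strand: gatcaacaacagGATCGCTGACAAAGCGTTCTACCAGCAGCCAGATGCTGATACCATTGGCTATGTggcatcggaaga
Dpf2, chr19:5903731-5903772, minus strand: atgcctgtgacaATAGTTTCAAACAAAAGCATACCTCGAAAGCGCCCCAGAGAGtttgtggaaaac
Asph, chr4:9637659-9637703, minus strand: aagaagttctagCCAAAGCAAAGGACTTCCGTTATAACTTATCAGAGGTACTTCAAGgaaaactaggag
Exoc7, chr11:116293275-116293313, minus strand: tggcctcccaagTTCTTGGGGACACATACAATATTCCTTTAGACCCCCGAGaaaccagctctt
Fez2, chr17:78386991-78387071, minus strand: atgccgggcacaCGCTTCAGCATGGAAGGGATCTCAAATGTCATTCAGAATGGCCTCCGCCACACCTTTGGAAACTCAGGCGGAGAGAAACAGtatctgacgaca
Ndrg4, chr8:95712325-95712363, plus strand: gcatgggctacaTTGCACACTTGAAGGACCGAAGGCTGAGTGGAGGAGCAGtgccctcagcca
Mff, chr1:82741818-82741976, plus strand: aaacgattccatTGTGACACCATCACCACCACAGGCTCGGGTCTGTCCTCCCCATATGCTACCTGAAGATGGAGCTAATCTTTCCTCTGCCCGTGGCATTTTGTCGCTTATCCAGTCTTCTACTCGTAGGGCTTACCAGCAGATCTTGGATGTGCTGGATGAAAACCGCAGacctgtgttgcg
Tecr, chr8:83573411-83573455, minus strand: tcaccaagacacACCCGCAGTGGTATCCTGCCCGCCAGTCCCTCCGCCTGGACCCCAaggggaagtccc
All 10 exons have lengths that are multiples of 3, from 30 nt in Ttc8 to 159 nt in Mff, and read in the annotated frame none holds a stop codon. They were picked from 19 named exons that could be printed, of which 12 were multiples of 3.

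The columns differed in depth, and the class labels were checked against marker genes. Column totals ran from 3509890 counts in ganglion cells, through 6133094 in Müller glia, 7307134 in cones, 29010038 in bipolar cells and 48248340 in amacrine cells, to 55437340 in rods. Each of the 6 markers of every class was highest in its own column. Scaled to a column total of 1000000 (CPM), the rod markers summed to 21710 in rods and, relative to that, to 5.89% in Müller glia, 4.14% in cones, 1.74% in bipolar cells and 0.644% in amacrine cells, with all 6 at 0 in ganglion cells. The Müller column was also highest for 6 of 6 microglia markers, at 1238 CPM, and for 3 of 3 vascular markers, at 173 CPM. The amacrine column held 686 CPM of its own markers. It also held 693 CPM of ganglion cell markers, 3.90% of their sum in ganglion cells. Müller markers stood there at 924 CPM, 2.09% of their sum in Müller glia. In such pooled columns, fewer cells of a type and less RNA per cell cannot be told apart.

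The cassette exons were ordinary internal exons in length. Their median was 111 nt (quartiles 78 and 154 nt), against 120 nt in the 82702 exons of at least 28 nt that no model of the gene skipped, and the longest was 3220 nt. Their flanking introns had a median of 1901.5 nt, against 1318 nt around the never-skipped exons. A length that is a multiple of 3 was found in 2619 of the 7013, or 37.3% (interval 36.2 to 38.5%), close to the 38.7% (38.3 to 39.0%) of never-skipped exons. Among the 208 microexons under 28 nt that met the same structural rule, 140 were multiples of 3, or 67.3% (60.5 to 73.6%). Exons share genes and are not independent, so these intervals are a description.

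The change with length was gradual at the edge of the rule. There were 12, 10 and 27 exons of 25, 26 and 27 nt just outside it, and 9, 7 and 21 exons of 28, 29 and 30 nt just inside. Multiples of 3 made up 42.7% of the 527 exons of 28 to 50 nt and 40.4% of the 2476 of 51 to 100 nt, falling to 32.8% of the 1501 of 151 to 300 nt.

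Most cassette exons lay in coding sequence. In GENCODE M21, 4945 (70.5%) were coding in full and 548 coding in part, and 596 (8.50%) were untranslated exons of coding transcripts. Of those in no coding transcript, 440 occurred in transcripts annotated for nonsense-mediated decay and 344 in noncoding transcripts only. The other 140 were not exons of M21. The genes with the most members were Wdr78 with 13, and Srp54c and the noncoding RNA gene Firre with 10 each. A single such exon was found in 2507 genes and 5 or more in 85. Of all members, 707 overlapped another member of their gene, and 5 lay at loci named only by position.

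The annotation held the kept form far more often than the skipped form. Both inclusion introns were in M21 for 6377 exons (90.9%), and the skipping intron for 3444 (49.1%). The plot of inclusion over all columns shows how these exons differed. Inclusion was the share of counts that kept the exon among counts that kept or skipped it. Where the skipping intron was annotated the median was 53.4% over 3202 exons, and where it was not the median was 90.21% over 3065 exons. A skipping form outside the annotation was thus usually the minor form.

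**Figure D1:**
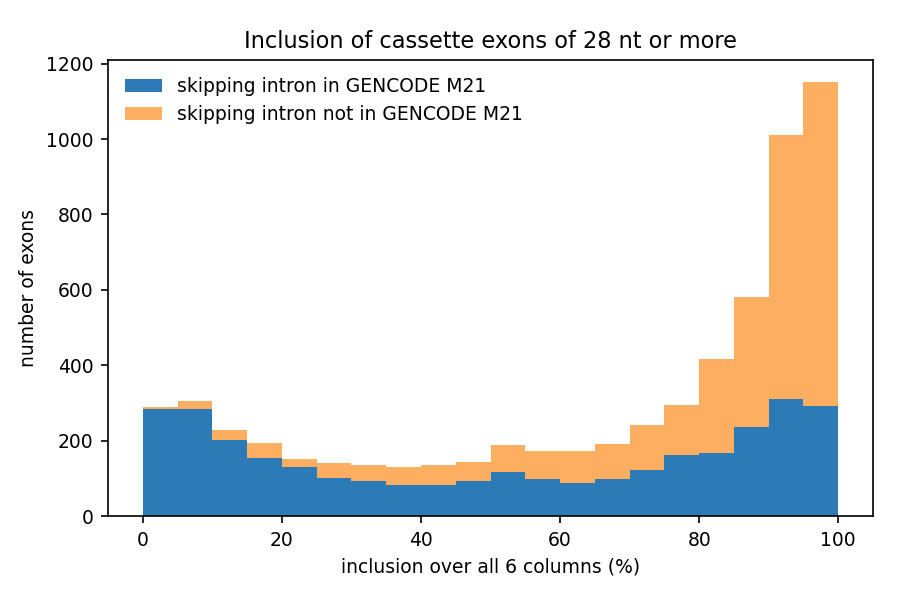
Inclusion of the 6267 exons with at least 50 counts over all 6 columns, in bins of 5 percentage points, split by whether the skipping intron is in GENCODE M21. The tallest bin is 95 to 100%, with 1152 exons, and it is made up mostly of exons whose skipping intron is not in M21.

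Summed over the columns, 1152 of these 6267 exons were kept in 95 to 100% of counts, 2303 in 75 to 95%, 1650 in 25 to 75%, 874 in 5 to 25% and 288 in 0 to 5%. Multiples of 3 made up 39.9, 39.8 and 40.7% of the exons with inclusion of 0 to 5, 5 to 25 and 25 to 75%, against 34.4 and 34.2% of those at 75 to 95 and 95 to 100%. The very common exons illustrate the ends of the scale. Of the exons read in every class, Atp5l, which encodes a subunit of the mitochondrial ATP synthase, had one of the largest totals, and its 161 nt exon was kept in 93.3% of 106502 rod counts and 97.3 to 99.8% in the other classes. The 50 nt exon of Ndufa7, a subunit of respiratory complex I, was kept in 89.7 to 95.4%, and the 94 nt exon of Edf1, a transcriptional coactivator, in 95.2 to 98.5%. The 86 nt exon of Uqcr10, a subunit of respiratory complex III, lies in noncoding transcripts only and was kept in 6.95 to 11.3%.

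Inclusion within a class was read only where an exon had at least 50 counts there, and a class with fewer is called unread for that exon. There were 5195 such exons in rods, 2131 in cones, 4071 in amacrine cells, 1409 in ganglion cells, 3743 in bipolar cells and 2013 in Müller glia. Of all members, 4293 were read in 2 or more classes, 1073 in all 6 and 1262 in none. Over the exons read in all 6, median inclusion ran from 85.7% in amacrine cells and rods to 90.22% in bipolar cells, so no class kept or skipped these exons as a whole. Values of exactly 0 or 100% made up 31.8% of the read exons in ganglion cells, the shallowest column, 14.8% in Müller glia, 13.1% in amacrine cells, 11.4% in cones and 7.59% in bipolar cells. Rods had none, which the models fix, since both forms of every exon have a rod count.

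The first question was how many cassette exons were used differently between classes. An exon was counted as differing when its highest and lowest read classes were at least 25 percentage points apart, a rule of size and not a test. This held for 1122 of 4293 exons (26.1%) in 939 genes, and likewise for 280 of the 1073 exons read in all 6 classes (26.1%). The median range was 13.0 points. A range of at least 50 points was found for 314 exons and of at least 90 points for 26, whereas 705 (16.4%) stayed within 5 points. By the counts of the smallest read class, the share was 29.2% (752 of 2573 exons) at 50 to 100 counts, 21.97% at 100 to 200, 19.8% at 200 to 500, 27.2% (31 of 114) at 500 to 1000 and 16.5% (14 of 85) above that.

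Short exons differed most often. Of the exons of 28 to 50 nt, 129 of 350 (36.9%) differed, against 26.4% of those of 51 to 100 nt and 24.1 to 24.7% in the bins of longer exons. Median inclusion over all columns was also lowest at 28 to 50 nt, 67.8% against 78.1 to 84.1% in the longer bins. The part of inclusion level in the length trend was not tested. Among microexons the same rule was met by 60 of 133 (45.1%), with a median range of 22.8 points. At the edge, 1 of 10 exons of 25 nt, 2 of 7 of 26 nt and 12 of 22 of 27 nt differed, and 2 of 5 of 28 nt, 3 of 6 of 29 nt and 9 of 16 of 30 nt. Multiples of 3 made up 37.6% of differing exons, 35.2% of the others, 40.8% of those with a range of at least 50 points and 38.2% of those within 5 points. Exons with an annotated skipping intron differed in 31.3% and those without in 19.6%.

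**Figure D2:**
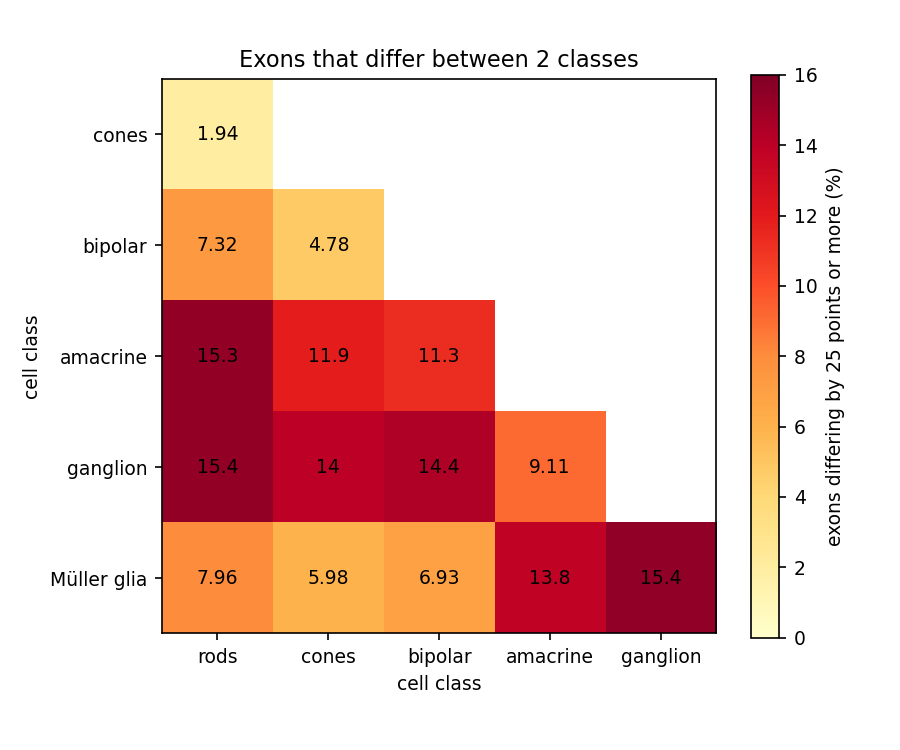
Share of exons read in both classes of a pair whose inclusion differed by at least 25 percentage points, for the 15 pairs of classes. Cones and rods have the lowest share, 1.94%, and the pairs of ganglion cells with rods and with Müller glia the highest, 15.4%.

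Pairs of classes fell in an order led by the photoreceptors, as the plot of pairs shows. Cones and rods differed for 41 of 2114 exons (1.94%), 21 with cones higher and 20 with rods higher. The share was 1.01% with a minimum of 100 counts and 0.753% when all columns were thinned to equal depth. Bipolar cells differed from cones for 4.78%, from Müller glia for 6.93% and from rods for 7.32%. Müller glia differed from cones for 5.98% and from rods for 7.96%. Amacrine and ganglion cells differed for 9.11%. Amacrine cells differed from bipolar cells for 11.3%, from cones for 11.9%, from Müller glia for 13.8% and from rods for 15.3%. For ganglion cells the share was 14% against cones, 14.4% against bipolar cells and 15.4% against both rods and Müller glia.

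The sets of exons read differ between pairs, so the shares were also taken over the 1073 exons read in all 6 classes. There cones and rods differed for 1.03%, bipolar cells and cones for 2.05%, bipolar cells and rods for 3.91%, amacrine and bipolar cells for 6.06%, amacrine and ganglion cells for 7.55%, amacrine cells and rods for 8.95%, and Müller glia and ganglion cells for 14.5%. Cones and rods kept the lowest share and ganglion cells with Müller glia the highest. At equal depth, amacrine cells and rods (10.4%) still lay above cones and rods (0.753%). Of the 15 pairs, only these 2 were recomputed at equal depth.

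**Figure D3:**
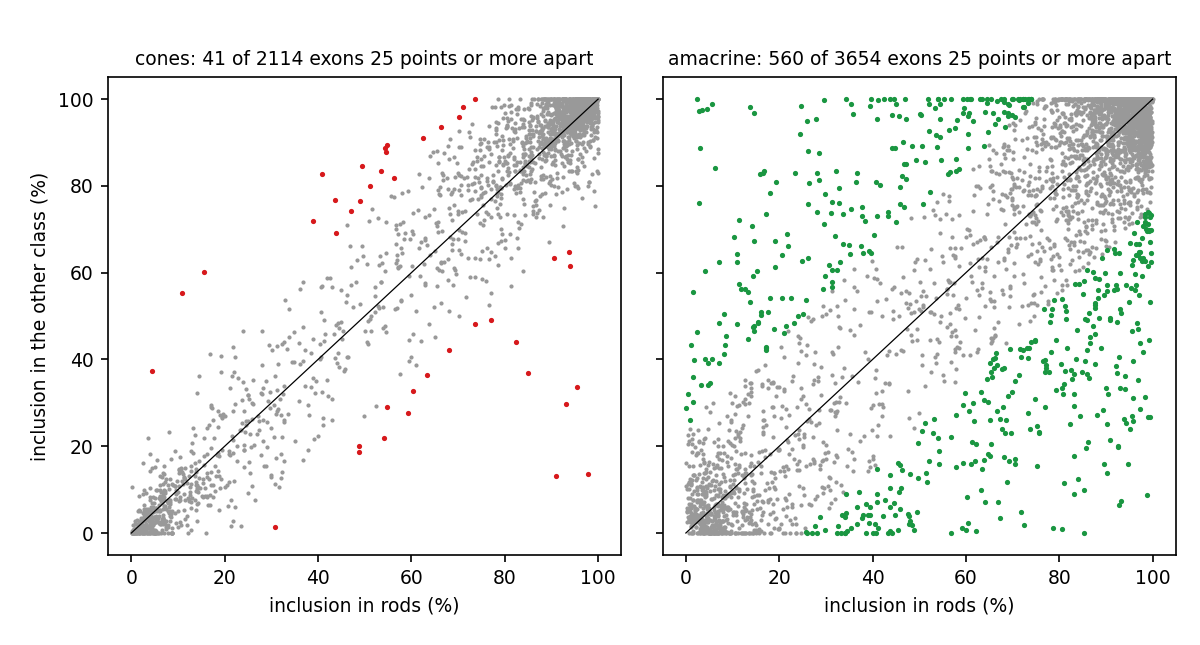
Inclusion in rods (horizontal, %) against inclusion in cones (left) or amacrine cells (right), 1 point per exon read in both, with the line of equal inclusion. Coloured points are at least 25 points apart, 41 of 2114 exons for cones and 560 of 3654 for amacrine cells.

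Few exons were used differently by cones and rods, and the 5 widest differences with at least 200 counts in each class were in Clk4, Bin1, Wdr54, Rer1 and Sumo3. Clk4 encodes a kinase that phosphorylates SR splicing factors. Its 91 nt exon was kept in 372 of 2391 rod counts (15.6%) and 139 of 231 cone counts (60.2%, interval 53.5 to 66.5%), and in 78.9% in bipolar cells. The 129 nt exon of Bin1, a gene for a membrane-bending protein, was kept in 4.44% of 7794 rod counts (3.99 to 4.92%) and 37.3% of 989 cone counts (34.3 to 40.4%). In bipolar, amacrine and ganglion cells it was kept in 96.1 to 97.6%, and in 22 of 75 Müller counts (29.3%).

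Other exons had higher inclusion in rods than in cones. The 108 nt exon of Sumo3, which encodes a small protein modifier, occurs in transcripts annotated for nonsense-mediated decay. It was kept in 48.9% of 9799 rod counts (47.9 to 49.8%), 18.8% of 1379 cone counts (16.8 to 20.9%), and 4.55% in bipolar cells. Müller glia kept it in 3.61%, amacrine cells in 0.723% and ganglion cells in 0 of 2040 counts. A 71 nt untranslated exon of Wdr54 was kept in 93.9% in rods and 61.6% in cones. For the 105 nt exon of Rer1, a retrieval protein of the Golgi, the values were 59.3% in rods and 27.6% in cones. That exon depends on the definition of inclusion. Its range over classes of 69.2 points was 16.5 points under a wider definition that counts any isoform holding the exon against any isoform with an intron spanning it.

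**Figure D4:**
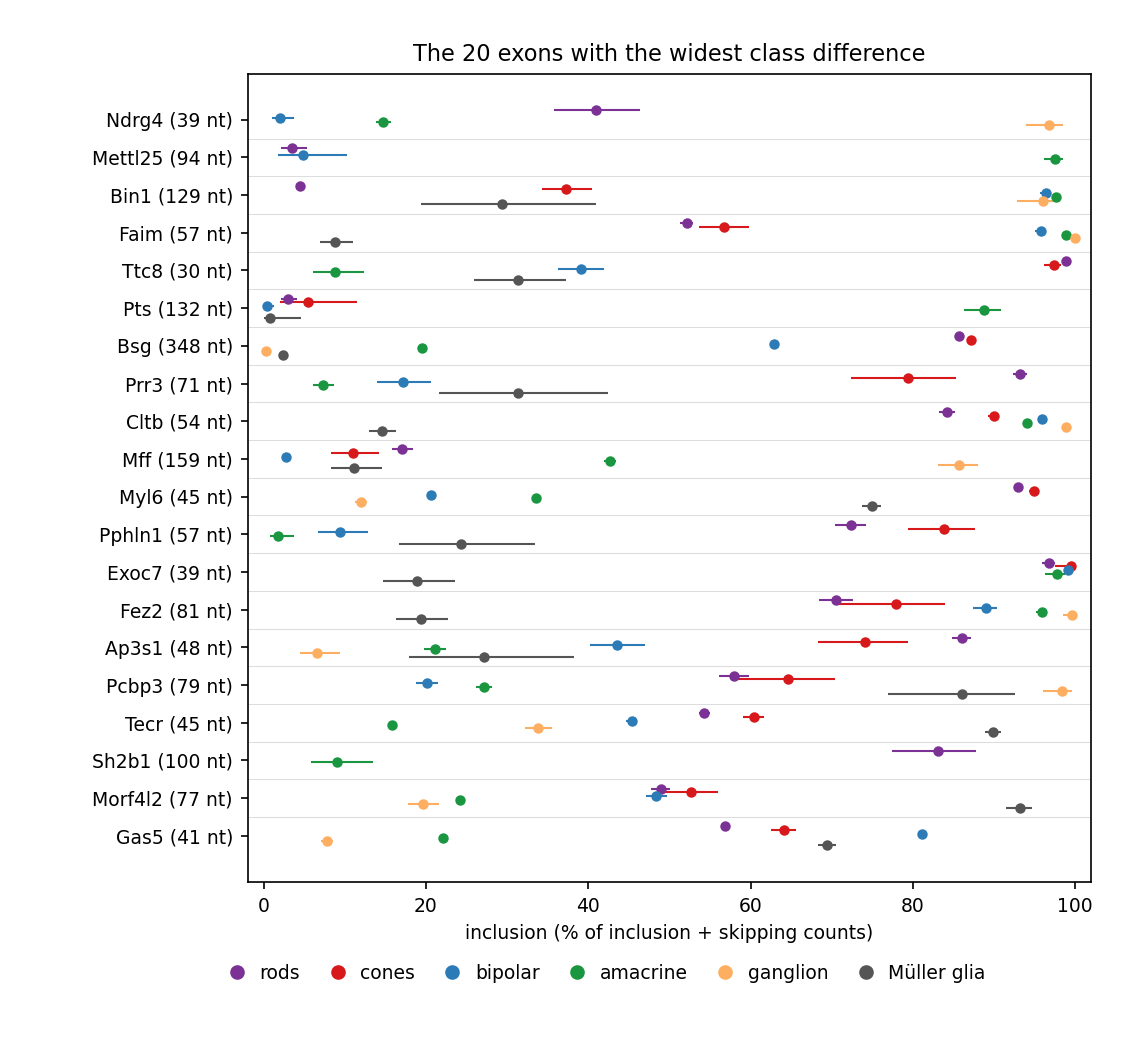
Inclusion in each read class for the 20 exons with the widest class difference and at least 200 counts in both extreme classes, 1 row per exon. Points are classes and bars exact 95% intervals for counting error. Ndrg4 runs from 2.06% in bipolar cells to 96.8% in ganglion cells.

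Exons kept by photoreceptors formed one pattern among the widest differences. Cones and rods both lay at least 25 points above every other read class for 13 of 2017 exons (0.645%), in 12 genes, and both below for 9 (0.446%). Of the 13, 8 were multiples of 3 and 10 were coding in full. This pattern was defined after inclusion values had been seen. The 30 nt exon of Ttc8, whose product belongs to the BBSome, a complex that moves proteins in cilia, was kept in 6885 of 6966 rod counts (98.8%, interval 98.6 to 99.1%) and 962 of 988 cone counts (97.4%, 96.2 to 98.3%). Bipolar cells kept it in 455 of 1165 counts (39.1%), Müller glia in 85 of 271 (31.4%) and amacrine cells in 31 of 351 (8.83%), and ganglion cells had 2 counts. The intervals of both photoreceptor classes lay above those of the other read classes. Because the exon was chosen for its wide range, that is no separate support. With a minimum of 100 counts in a class, 8 exons of this kind were found.

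Rod RNA in the other columns bears on the middle values. In CPM, the kept form of the Ttc8 exon in bipolar cells was at 12.6% of its rod level and in Müller glia at 11.2%, where rod markers summed to 1.74% and 5.89% of theirs. The part that rod RNA has in these values was not tested.

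The other exons above the rest of the read classes in photoreceptors spanned several functions. The 57 nt exon of Pphln1, which encodes periphilin, a nuclear protein, was kept in 72.4% of 2155 rod counts and 83.9% of 329 cone counts, against 24.3% in Müller glia, 9.46% in bipolar cells, 1.8% in amacrine cells and 0 of 41 ganglion cell counts. The 71 nt exon of Prr3 was kept in 93.3% in rods and 79.4% in cones, with 31.3% of 83 counts in Müller glia, 17.1% in bipolar cells and 7.27% in amacrine cells. The 108 nt exon of Gphn, which encodes gephyrin, the scaffold of inhibitory synapses, was kept in 78.5% of 289 rod counts and 78.6% of 56 cone counts. Its inclusion was 5.22% in bipolar cells, 1.10% in amacrine cells and 0 of 51 counts in ganglion cells. Müller glia, with too few counts to be read, kept it in 26 of 28, so the exon was high outside photoreceptors too.

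Vesicle and membrane genes were among them. The 75 nt exon of Epn1, an endocytic adaptor, was kept in 89.6% in rods and 92% in cones, 49.6% in bipolar cells, 15.9% in amacrine cells and 9.52% in ganglion cells, while the unread Müller column had 38 of 41 counts. The 48 nt exon of Ap3s1, a subunit of the AP-3 sorting adaptor, was kept in 86.1% in rods and 74.1% in cones. Inclusion was 43.6% in bipolar cells, 21.1% in amacrine cells, 6.6% in ganglion cells and 27.2% of 81 Müller counts. Cd47 encodes the cell surface signal that restrains phagocytes, and its 45 nt exon was kept in 60% in rods and 54.9% in cones, 16.6% in bipolar cells, 0.794% in amacrine cells, 6.32% in Müller glia and 0 of 377 ganglion cell counts. Scarb1, a lipoprotein receptor, had 38.5% in rods and 33.7% in cones for its 129 nt exon, against 4.17% in bipolar and 6.80% in amacrine cells, with 13 of 24 counts in the unread Müller column.

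Bsg fell short of that pattern because bipolar cells kept its exon too. Basigin, its product, is a partner of lactate transporters, and the 348 nt exon encodes an extra immunoglobulin-like domain of the retinal form. The exon was kept in 58491 of 68209 rod counts (85.8%), 87.2% of 16655 cone counts, 62.9% of 78567 bipolar counts, 19.5% of 59661 amacrine counts, 2.39% of 61000 Müller counts and 9 of 3328 ganglion cell counts (0.27%). The kept form stood at 1704 CPM in bipolar cells and 1055 CPM in rods. Bipolar cells held 1.74% of the rod markers, and the part that rod RNA has in the bipolar value was not tested. The paralog Nptn, which encodes neuroplastin, has a cassette exon of the same 348 nt. It was kept in 57% of 604 bipolar counts, 37% of 54 cone counts, 19.1% in rods and 10.2% in amacrine cells, and in 0 of 176 ganglion cell and 0 of 589 Müller counts. Both exons were thus near 0 in ganglion cells and Müller glia, while their highest classes differed.

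Of the 9 exons low in photoreceptors, 2 were multiples of 3. The 262 nt exon of Gpx7, a peroxidase of the endoplasmic reticulum, was kept in 27.9% of 104 rod and 38.6% of 101 cone counts against 87.6 to 100% in the other classes. The 198 nt exon of Fuz, a planar polarity effector needed for cilia, was kept in 44.9% in rods and 48.7% in cones, and in 76.6% in Müller glia, 86.3% in bipolar cells and 88.8% in amacrine cells. The 65 nt exon of Golga4, a golgin, was kept in 32.1% in rods and 12.7% of 63 cone counts, against 58.4% in bipolar and 83.5% in amacrine cells, with 6 of 40 counts in the unread Müller column.

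Rods alone stood apart less often. They were above every other read class for 2 of 2361 exons (0.0847%) and below for 13 (0.551%). The exon of Sumo3 described above was among the former. Among those below, the 126 nt exon of Ccdc58 was kept in 54.4% of 1212 rod counts and 88.7 to 100% elsewhere. The 126 nt exon of Yaf2, a Polycomb partner, was kept in 56.9% in rods and 98.8 to 100% in the other read classes, and its range of 43.1 points was 16.9 points under the wider definition. Cones were above every other class for 0 of 2018 exons (0%) and below for 3 (0.149%). These were in Rer1, Ccdc136 and the noncoding gene Ccdc142os. The 107 nt exon of Ccdc136 was kept in 13.1% of 198 cone counts and 90.9 to 100% in the other read classes. The 64 nt exon of Ccdc142os was kept in 20% of 145 cone counts and 48.2 to 51% in the others, a range of 31.0 points that was 13.8 points under the wider definition. How strand was treated in counting is not given in the sources used here, so reads of Ccdc142os and of a gene on the other strand may not be told apart.

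**Figure D5:**
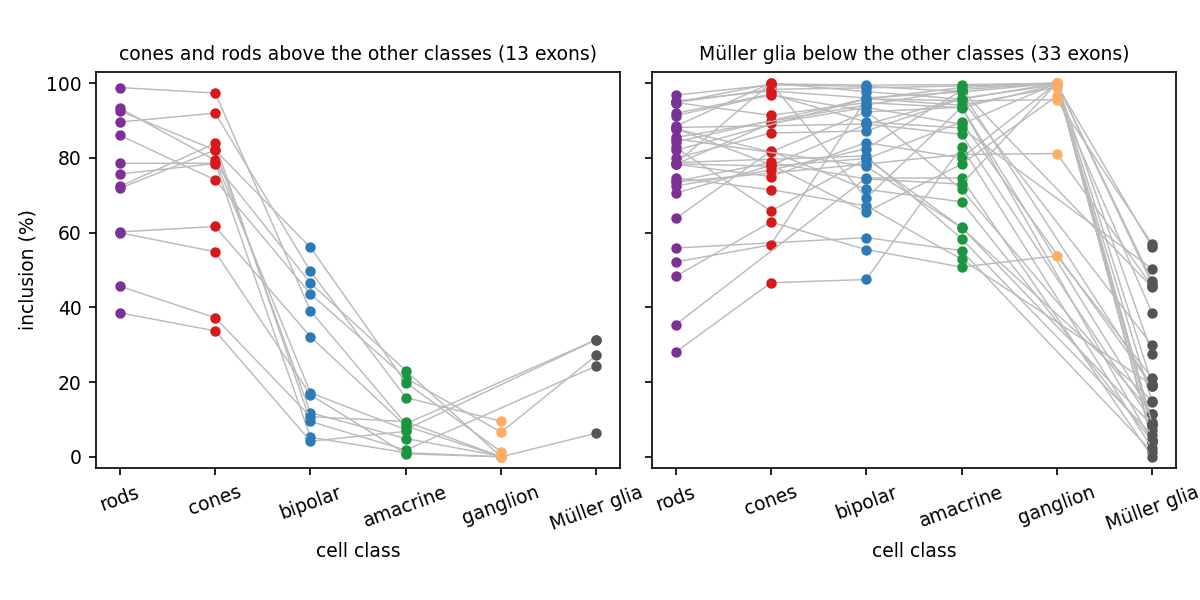
Inclusion by class for the 13 exons in which rods and cones both lie at least 25 points above every other read class (left) and the 33 in which Müller glia lie at least 25 points below every other (right). Lines join the read classes of 1 exon, and classes with under 50 counts have no point.

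Müller glia skipped exons that the neurons kept. They lay at least 25 points below every other read class for 33 of 1863 exons (1.77%) and above for 14 (0.751%). The 33 were short, with a median of 66 nt against 107 nt over all exons read in 2 or more classes. Of the 33, 21 (63.6%) were multiples of 3, against 35.8% of all those exons, and 24 were coding in full. The class gap chose the exons and not their length, but they were few and were picked with values known, so this is a description. Exons highest in Müller glia (73 nt, 57.1% multiples of 3), in photoreceptors (75 nt, 61.5%) or in ganglion cells (81 nt, 58.3%) were similar. The remaining patterns had medians of 78 to 131 nt and shares of 10 to 50%. Neither trait was thus particular to the exons low in Müller glia.

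The largest gaps left Müller glia nearly without the exon. The 45 nt exon of Asph, an aspartyl hydroxylase of the endoplasmic reticulum, was kept in 7 of 174 Müller counts (4.02%, interval 1.63 to 8.11%) and in 94.8% of 446 rod counts, 98.4% in cones, 98.8% in bipolar cells, 99.3% in amacrine cells and 528 of 528 ganglion cell counts. The 42 nt exon of Dpf2, a subunit of the BAF chromatin remodelling complex, was kept in 10 of 221 Müller counts (4.53%, 2.19 to 8.16%) and in 95.2% of 2855 rod counts, 97.9% in cones, 96% in bipolar cells, 97.6% in amacrine cells and 59 of 59 ganglion cell counts. The 5 neuronal columns lay within 6 points of each other for both exons.

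Clathrin supplied another of these exons. The 54 nt exon of Cltb, which encodes clathrin light chain b and is known as its neuronal insert, was kept in 274 of 1880 Müller counts (14.6%, interval 13 to 16.3%). The neurons kept it in 84.3% of 5248 rod counts, 90% in cones, 95.9% in bipolar cells, 94.1% in amacrine cells and 98.9% in ganglion cells. The paralogous light chain gene Clta showed another order for its 36 nt exon, with 92.1% of 43289 rod counts, 92.3% in cones, 88.8% of 696 counts in Müller glia, 84.6% in bipolar cells, 57.2% in amacrine cells and 46.1% in ganglion cells. Within the counts scored, the low class was Müller glia for Cltb and ganglion cells for Clta. For Clta most Müller counts of the gene entered neither side of the ratio. Its kept form stood at 101 of the gene's 929 CPM in Müller glia. The values were 611 of 1382 CPM in ganglion cells and 719 of 965 CPM in rods.

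Further examples had the same form. Exoc7, a subunit of the exocyst that tethers secretory vesicles, had 2 such exons, and its 39 nt exon was kept in 60 of 318 Müller counts (18.9%) and 96.8 to 99.6% in the other read classes. The 93 nt exon of Bin1 was kept in 27.5% of 280 Müller counts and 94.8 to 100% in neurons. The 81 nt exon of Fez2 was kept in 19.4% of 614 Müller counts, 70.6% in rods, 78% in cones, 89% in bipolar cells, 95.9% in amacrine cells and 99.6% in ganglion cells. The 30 nt exon of Ppp3ca, the catalytic subunit of calcineurin, was kept in 9.18% of 98 Müller counts and 86.3 to 89.1% in rods, bipolar and amacrine cells, with 16 of 46 counts in the unread ganglion cells. The 96 nt exon of Add3, an actin-capping adducin, was kept in 29.8% of 688 Müller counts and 79.9 to 95.8% elsewhere.

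The exons above all others in Müller glia were fewer. The 45 nt exon of Tecr, a reductase of very long chain fatty acid synthesis, was kept in 89.9% of 3381 Müller counts, 60.4% in cones, 54.3% in rods, 45.4% in bipolar cells, 33.9% in ganglion cells and 15.9% of 43328 amacrine counts. The 77 nt untranslated exon of Morf4l2, a chromatin protein, was kept in 93.2% in Müller glia, 48.4 to 52.7% in bipolar cells, rods and cones, 24.2% in amacrine cells and 19.6% in ganglion cells. The 30 nt exon of Ncam1, a neural cell adhesion molecule, was kept in 45.9% of 74 Müller counts against 6.08% in rods, 11% in cones and 10.6% in bipolar cells. The 33 nt exon of Tia1, an RNA-binding protein, was kept in 69.6% in Müller glia and 34.9 to 40.7% in the other read classes, with 13 of 14 counts in the unread ganglion cells. The Müller column holds the microglia, vascular and rod markers given above, and their part in its values was not tested.

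The amacrine column stood apart on more exons than the rod or bipolar column. It was above every other read class for 23 of 2344 exons (0.981%) and below for 44 (1.88%). The 94 nt exon of Mettl25, in transcripts annotated for nonsense-mediated decay, was kept in 721 of 739 amacrine counts (97.6%) and in 3.49% of 601 rod counts and 4.88% in bipolar cells. It was read in only 3 classes, too few for it to be among the 23. Ganglion cells, below the minimum depth, had it in 36 of 36 counts. The 111 nt exon of Cttn, which encodes the actin-binding protein cortactin, was kept in 67.3% of 762 amacrine counts, 14.8% in Müller glia, 14.5% in rods and 2.76% in bipolar cells, and in 37 of 38 ganglion cell counts.

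A noncoding exon of Pts, the gene for an enzyme of tetrahydrobiopterin synthesis, was kept in 88.8% in amacrine cells and 0.42 to 5.46% in the other read classes, a range of 88.3 points that was 55.0 points under the wider definition. On the low side, the 98 nt exon of Taf1b, a factor of RNA polymerase I, was kept in 11.5% of 992 amacrine counts and 62.1 to 81% in the other read classes. The 116 nt exon of Tpd52 was kept in 15.9% in amacrine cells and 91.2 to 96.4% in the others, but that range of 80.5 points was 3.52 points under the wider definition. Ganglion cells had too few counts to be read for these exons and lay on the amacrine side in each of them, with 29 of 29 counts kept for Pts, 0 of 31 for Taf1b and 0 of 36 for Tpd52.

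Ganglion cells had the highest shares of exons set apart from every other read class. They lay above every other read class for 24 of 1343 exons (1.79%), 14 of them multiples of 3, and below for 30 (2.23%), of which 3 were. Of the 39 nt exon of Ndrg4, a gene expressed in neurons, 268 of 277 ganglion cell counts kept it (96.8%, interval 93.9 to 98.5%), against 41% of 349 rod counts, 14.8% of 5658 amacrine counts and 2.06% of 485 bipolar counts. The 159 nt exon of Mff, the mitochondrial receptor for the fission enzyme Drp1, was kept in 85.7% of 824 ganglion cell counts (83.1 to 88%), 42.7% in amacrine cells, 17.1% in rods, 11.2% in Müller glia, 11% in cones and 2.77% of 5227 bipolar counts. The 104 nt exon of Aamdc was kept in 73.5% of 567 ganglion cell counts and 14.1 to 25.6% elsewhere.

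The 79 nt exon of Pcbp3, an RNA-binding protein, joined ganglion cells with glia. It was kept in 98.4% of 255 ganglion cell counts and 86% of 86 Müller counts, 64.6% in cones, 58% in rods, 27.1% in amacrine cells and 20.1% in bipolar cells. On the low side, the 151 nt exon of Rnf114, a ubiquitin ligase, was kept in 17.4% of 488 ganglion cell counts (14.2 to 21.1%), 78.3% in amacrine cells and 98 to 100% elsewhere. The 48 nt exon of Izumo4 was kept in 16% of 125 ganglion cell counts, 67.9% in amacrine cells and 75.2 to 88.9% elsewhere. The ganglion cell column is the shallowest and holds many values of exactly 0 or 100%, and the part of depth in its counts was not tested.

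Bipolar cells were above every other read class for 11 of 2363 exons (0.466%) and below for 12 (0.508%). The 129 nt exon of Sult4a1, a brain sulfotransferase, was kept in 54.3% of 372 bipolar counts, 5.63% in rods, 2.39% in ganglion cells and 1.44% in amacrine cells. Cones, below the minimum depth, kept it in 29 of 41 counts (70.7%). The 118 nt exon of Ociad2 was kept in 44.4% of 160 bipolar counts and 94.8 to 100% in the other read classes, with 10 of 16 counts in the unread cones. The 42 nt exon of Spp1, which encodes the secreted protein osteopontin, was kept in 19.6% of 922 bipolar counts and 13.6% of 88 cone counts, against 97.9% in rods, 99.8% in amacrine cells and 71.2% in Müller glia.

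Some exons spread the classes over much of the scale. Myl6 encodes an essential myosin light chain, and its 45 nt exon was kept in 93% of 31075 rod counts, 94.9% in cones, 74.9% in Müller glia, 33.5% in amacrine cells, 20.6% in bipolar cells and 12% in ganglion cells. The 57 nt exon of Faim, an inhibitor of cell death, was kept in 8.77% in Müller glia, 52.1% of 15326 rod counts, 56.7% in cones, 95.8% in bipolar cells, 98.8% in amacrine cells and 602 of 602 ganglion cell counts. The 41 nt exon of Gas5, a noncoding RNA that hosts small nucleolar RNAs, was kept in 81.1% in bipolar cells, 69.4% in Müller glia, 64.1% in cones, 56.9% in rods, 22.1% of 93528 amacrine counts and 7.76% in ganglion cells. Within the counts scored, rods and cones were neighbours in all 3 orders. For Faim most rod counts of the gene entered neither side of the ratio. Its kept form stood at 144 of the gene's 1630 CPM in rods and 79 of 204 CPM in cones.

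Gene lists drawn up for the retina gave shares on both sides of the 26.1% found over all exons. The lists were chosen with earlier results of these data known, and no set test was made. Adhesion and receptor genes had 9 of 14 read exons differing (64.3%), cytoskeleton and scaffold genes 15 of 28 (53.6%), photoreceptor exon genes 3 of 6 (50%), synapse and vesicle genes 13 of 32 (40.6%) and channels, pumps and signalling genes 7 of 19 (36.8%). Splicing factors had 19 of 71 (26.8%, median range 13.5 points) and cilium and centrosome genes 5 of 24 (20.8%, median 12.6 points). The last 2 lists were near the background, and the small lists rest on few exons. Some differing exons of a list share the same isoforms, so the shares count them more than once.

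In the cytoskeleton list, tropomyosins, which coat actin filaments, supplied 5 of the 15 differing exons. These are not all separate, since a pair of Tpm1 exons had the same kept counts in every class. The same held for the 65 nt and 87 nt exons of Golga4. A 76 nt exon of Tpm1 was kept in 71.9% of 469 rod counts, 82.1% of 67 cone counts, 11.8% in bipolar cells, 4.89% in amacrine cells and 0.136% in ganglion cells. The 76 nt exon of Tpm3 was kept in 29.9% in rods, 12.2% in Müller glia, 7.29% in bipolar cells, 0.751% in amacrine cells and 0.168% in ganglion cells. Its range of 29.7 points was 60 points under the wider definition. In both tropomyosin genes, the event shares an outer end with the edge of another 76 nt cassette exon. The kept form therefore holds both exons of the pair, and the skipping form only the other one. Isoforms with only the named exon enter neither side, so these values do not give the choice between mutually exclusive exons. The 87 nt exon of Golga4 was kept in 28.5% of 242 rod counts, 87.4% in bipolar and 87.7% in amacrine cells, and its range of 59.2 points was 34.1 points under the wider definition.

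In the adhesion list, Aplp2, a relative of the amyloid precursor gene, has a 168 nt cassette exon that encodes a Kunitz-type protease inhibitor domain. It was kept in 94.8% in rods, 98.4% in cones, 97.2% in bipolar cells, 96.9% in Müller glia and 72.3% of 343 amacrine counts. Amacrine cells were the lowest read class, and ganglion cells, below the minimum depth, had 16 of 22 counts. The 102 nt exon of Cadm3, a synaptic adhesion molecule, was kept in 1.54% of 259 cone counts, 15.5% in amacrine cells, 21.3% in rods, 24.6% in ganglion cells and 37.4% in bipolar cells.

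Among the other lists, the 45 nt exon of Gnas, which separates the long and short forms of the stimulatory G protein alpha subunit, was kept in 99.7% of 18197 amacrine counts, 99.1% in ganglion cells, 89.8% in bipolar cells, 71.7% in Müller glia, 71.5% in rods and 67.3% in cones. The 75 nt exon of Slc17a7, the vesicular glutamate transporter of photoreceptors and bipolar cells, was kept in 79.4% of 495 rod counts, 68.8% in cones and 12.4% of 331 bipolar counts, with 7 of 7 amacrine and 7 of 8 Müller counts below the minimum depth. Ift20, an intraflagellar transport protein, has an untranslated 229 nt exon that was kept in 96.6% in ganglion cells, 87.9% in rods, 78.3% in amacrine cells, 78.2% in cones, 65.5% in bipolar cells and 38.4% of 593 Müller counts. The 95 nt exon of Amph, which encodes the endocytic protein amphiphysin, was kept in 74% of 288 rod counts and in 98.8 to 100% in bipolar and amacrine cells.

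Splicing factors differed among themselves. The 159 nt exon of Hnrnpa1 was kept in 50.6% of 8575 rod counts, 43.5% in cones and 50.6% in bipolar cells, against 70.5% in Müller glia, 88.2% in ganglion cells and 89.1% in amacrine cells. Hnrnpdl, a related RNA-binding protein, was lowest in amacrine and ganglion cells for its 105 nt decay-annotated exon, with 66.6% in rods, 60.4% in cones, 50.7% in Müller glia, 42.9% in bipolar cells, 34.8% in ganglion cells and 28.2% in amacrine cells. The kinase gene Clk1 has a 91 nt exon like that of Clk4, kept in 46.8% of 2583 rod counts, 58.5% in Müller glia, 66.2% in cones, 75.1% in amacrine cells and 92.7% in bipolar cells. In both kinase genes rods were the lowest read class and bipolar cells the highest, and ganglion cells had 2 of 21 counts for Clk1. The 88 nt exon of U2af1, a factor that reads the 3′ splice site, ran from 10.8% in ganglion cells to 80.3% in bipolar cells, a range of 69.5 points that was 16.5 points under the wider definition.

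Exons tied to nonsense-mediated decay in M21 were split by which form is annotated for decay. In 339 exons the kept form was annotated for decay and the skipped form as coding. Over the 323 with at least 50 counts their median inclusion was 11.9%, and 229 (70.9%) were under 25%. In 379 exons the skipped form was annotated for decay and the kept form as coding. Over the 358 with at least 50 counts their median was 84.5%, and 9 were under 25%. All exons coding in full, taken with no minimum count, also had a median of 84.5%. Multiples of 3 made up 29.5% of the former set and 4.49% of the latter, against 37.3% of all members. Because a shifted frame often brings in an early stop, these shares follow in part from how the sets were defined. The former set thus had low inclusion, and the latter a median near that of coding exons taken with no minimum count.

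The share that differed between classes was 70 of 257 (27.2%) in the former and 95 of 277 (34.3%) in the latter, against 26.1% overall. The following were chosen for their large totals after their values were seen. The 456 nt exon of the splicing factor Srsf3, known as a poison exon, was kept in 0.228 to 5.31% across classes. The 81 nt exon of Rps19, a ribosomal protein, was kept in 2.38 to 8.55%. For Snrpb, a core protein of the spliceosome, the 124 nt exon was kept in 18.2% of 35128 amacrine counts and 18.1% of 1610 ganglion cell counts, and in 2.4 to 4.87% in the other classes. In Glrx3, a glutaredoxin gene, the 89 nt exon was likewise highest in these 2 classes, with 25% in ganglion cells, 19.9% in amacrine cells and 1.05 to 3.76% elsewhere. The 184 nt exon of Cabp1, a calcium-binding protein, was an exception in its set, kept in 94.2 to 97.8% of counts in the 4 read classes.

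Some genes had several differing exons, which are not always separate because exons of a gene can overlap or share isoforms. Among the 939 genes, 150 had 2 or more differing exons and 27 had 3 or more. In Bin1 the 129 nt and 93 nt exons separated different classes, the former with rods lowest at 4.44% and the latter with Müller glia lowest at 27.5%. Clk4 had 4 differing exons. Its 67 nt exon was kept in 57.4% of 1087 amacrine counts and 8.33 to 11.3% in the other read classes, whereas its 59 nt exon was kept in 57.6% of 1780 rod counts and 6.28% of 223 Müller counts. The longest exon read in more than 1 class, 2340 nt in Tti1, was kept in 57 of 177 rod counts (32.2%) and 19 of 63 amacrine counts (30.2%) and showed no difference larger than its counting error.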

How the data were processed

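Whole-number counts per isoform were used as deposited, in 6 columns named for cell classes, and 0 columns were left unused. Per the labels' protocols, cDNA from 10x Genomics single-cell libraries was read on a nanopore instrument. Transcript models name FLAIR, a program for long-read isoforms, per the file contents, and the submitters' processing notes name the genome build mm10. The quantifier, the collapse of reads to molecules, the typing of cells and the treatment of doublets are not given in the sources used here. The columns name no library, so the test foreseen over libraries could not be run and differences are described by size. Models exist for 36426 of the 44325 isoforms, which are exactly those with at least 1 rod count. The other 7899 hold 0.131% of the counts and were not analysed here.

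Events were defined by gene, strand, outer intron ends and exon, and each of the 7519 events was reduced to 1 per exon, the one with the most counts. Isoforms with neither the exon's 2 introns nor the joining intron entered neither side. A class was read with at least 50 counts, and an exon differed with a range of at least 25 percentage points. Intervals are exact Clopper-Pearson, which leave out any error other than counting, and counts may include more than 1 read of a molecule. Annotation and exon sequences are from GENCODE M21 (GRCm38). Exons were set apart for 1 class, or for cones and rods, where at least 3 or 2 other classes were read. Python 3.11.15, numpy 2.4.6, pandas 2.3.3, scipy 1.17.1 and matplotlib 3.10.9 were used, and the structural rule and the size rule were tested on simulated data.

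The exons and gene lists were chosen with earlier results of these data known. Named exons, 1 per gene in each set, were the 20 widest ranges with at least 200 counts in both extreme classes, the 2 widest gaps of each class above and below the others at 100 counts, the 5 widest between cones and rods, the 6 with the most counts in all classes, up to 4 per gene list, and the longest read in 2 classes. Exons outside that rule, such as those of Gphn, Epn1, Ppp3ca, Add3 and Clk1, were named after their values were seen, as members of a pattern or list. Alternatives were other minimum counts, other ranges, equal depth, other definitions of inclusion and other sets of exons. The values of 1 exon counted among those of rods are not reported here.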

Additional observations from a re-analysis of the deposited data

How the results depend on the processing

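The share of exons differing between classes (26.1%) was 36.3, 20.6 and 13.98% with minimums of 20, 100 and 500 counts, 60.3 and 7.31% with ranges of 10 and 50 points, 22.4% at equal depth, 35.9% over exons with 5 to 95% inclusion, 23.2% without ganglion cells and 24.8% with 1 exon per gene. In the same order as far as equal depth and the 5 to 95% exons, cones and rods (1.94%) gave 4.71, 1.01, 0.447, 17.8, 0.189, 0.753 and 2.95%, and amacrine cells and rods (15.3%) gave 19.2, 13.2, 10.3, 41.2, 3.34, 10.4 and 21.4%. Amacrine cells and rods stayed above cones and rods in each of these settings. Median inclusion over exons with 5 to 95% inclusion was 80.8% in Müller glia, 70.7% in amacrine cells, 72.4% in ganglion cells, 77.0% in bipolar cells, 74.1% in rods and 79.05% in cones. With 1 exon per gene it was 91.3% in Müller glia, 84.4% in amacrine cells, 85.3% in rods, 89.1% in cones and 89.2% in bipolar cells. The minimum of 500 counts gave 89.97% in cones, 85.7% in rods and 90.3% in bipolar cells, the minimum of 20 gave 88.7% in ganglion cells and 78.7% in rods, the minimum of 100 gave 84.3% in rods, and equal depth gave 89.4% in bipolar cells and 85.1% in rods. Isoforms with at least 10 counts gave 81.3% in rods. Multiples of 3 were 39.0% of coding exons. Chosen after seeing the data, the count of exons with Müller glia below all others (33) was 18 at 50 points, 24 at a minimum of 100 counts and 36 without ganglion cells, and that of cones and rods above (13) was 3, 8 and 14. The cause of these changes was not tested. The other 58 values stayed within the interval of the value reported or, for counts, within 1.5 times it. No named exon that differed changed direction in the 557 comparisons, of which 42 moved (the small difference of Tti1 went from 2.04 to -0.777 points under the wider definition), and only the wider definition took exons below 25 points, 5 in all. No paired analysis was possible because a class column names neither a library nor a replicate number. Settings that only select exons or set the minimum count cannot move the difference between the same classes. The ganglion cell column is the shallowest and has the fewest exons read, and the part of depth in its values was not tested.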
